A study of Mus musculus with 18 samples.

Results

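Pim1, Pim2 and Pim3, the 3 members of the Pim family of survival kinases, were followed in factor-dependent myeloid (FDM) cells before and after IL-3 was taken away. They were chosen by symbol, as 3 of the 17711 gene symbols that the array annotation gives, and every probe that carries 1 of these symbols was used. Pim1 had 1 probe (ILMN_2702406), Pim2 had 3 (ILMN_1222824, ILMN_2703566 and ILMN_1250045, called probes 1, 2 and 3 from the brightest down) and Pim3 had 1 (ILMN_1244896). All 5 of these probes were detected on at least 1 array.
FDM cells are mouse myeloid progenitor cells, immortalized with HoxB8, that depend on IL-3. The 6 groups were p53-/- cells at 0, 6 and 18 h without IL-3 and WT cells at the same times, where 0 h stands for culture with IL-3 present. Each group held RNA from 3 clones, derived independently, so each genotype is represented by 3 cell lines that all carry HoxB8. RNA was hybridized to 18 Illumina MouseWG-6 arrays.

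Pim proteins are serine/threonine kinases that are active as soon as they are made, without an activating phosphorylation, so their abundance is set largely by transcription and by turnover of the mRNA and protein. Cytokines such as IL-3 signal through JAK kinases to STAT5, which induces Pim genes in blood cells. The kinases phosphorylate proteins of the apoptotic machinery and the cell cycle, among them Bad, p27 and Cdc25 phosphatases, and overlap in substrates with Akt.

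The sequences before the Pim start sites are shown because the 3 genes moved together after IL-3 withdrawal. RefSeq (build GRCm38.p6) gives 4 windows for them, each of 300 bases around a start site, all on the + strand. Pim1 has 2, at chr17:29490535-29490834 and chr17:29492835-29493134, Pim2 has 1 at chrX:7878056-7878355 and Pim3 has 1 at chr15:88861944-88862243. Capitals mark the E-box CACGTG, the FOXO motif GTAAACA, the CCAAT box and the GC box GGGCGG, each read on both strands.
Pim1 first window: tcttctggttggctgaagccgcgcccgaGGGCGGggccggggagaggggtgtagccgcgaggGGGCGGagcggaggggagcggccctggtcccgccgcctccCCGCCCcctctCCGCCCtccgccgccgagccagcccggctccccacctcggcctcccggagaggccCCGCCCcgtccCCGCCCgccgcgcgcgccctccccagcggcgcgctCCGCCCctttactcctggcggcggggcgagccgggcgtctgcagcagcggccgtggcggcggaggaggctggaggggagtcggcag
Pim1 second window: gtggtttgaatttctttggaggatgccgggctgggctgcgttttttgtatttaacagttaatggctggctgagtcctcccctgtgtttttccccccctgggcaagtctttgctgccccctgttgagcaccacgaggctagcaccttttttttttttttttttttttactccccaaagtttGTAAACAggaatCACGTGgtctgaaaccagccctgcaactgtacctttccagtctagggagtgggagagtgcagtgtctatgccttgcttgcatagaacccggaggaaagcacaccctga
Pim2: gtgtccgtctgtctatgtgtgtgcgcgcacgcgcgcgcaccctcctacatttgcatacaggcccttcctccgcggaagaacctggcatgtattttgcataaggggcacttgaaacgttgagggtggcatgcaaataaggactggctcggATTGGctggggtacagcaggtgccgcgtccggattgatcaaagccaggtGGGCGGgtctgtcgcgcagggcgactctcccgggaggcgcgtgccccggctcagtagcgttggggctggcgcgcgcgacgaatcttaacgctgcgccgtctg
Pim3: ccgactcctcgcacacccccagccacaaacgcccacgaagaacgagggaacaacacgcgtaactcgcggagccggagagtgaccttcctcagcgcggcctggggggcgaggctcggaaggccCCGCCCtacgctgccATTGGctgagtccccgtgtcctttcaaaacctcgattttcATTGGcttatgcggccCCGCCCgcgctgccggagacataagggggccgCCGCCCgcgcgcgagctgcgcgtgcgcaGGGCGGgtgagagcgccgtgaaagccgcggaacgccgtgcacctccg
The first Pim1 window was 81.3% G or C and held 7 GC boxes, against 53.8% G or C over all 32851 mouse windows, of which 35.7% held at least 1 GC box. Pim3, at 69% G or C, held 4 GC boxes and 2 CCAAT boxes. Pim2, at 62.7%, held 1 of each, and 37.4% of all windows held a CCAAT box. The second Pim1 window, at 49%, held 1 E-box and 1 FOXO motif, which occurred in 7.15% and 3.65% of all windows, and 1 match to the p53 half-site, which occurred in 8.36%.
The STAT motif TTCNNNGAA and the same motif with 4 bases between its arms occurred in 8.3% and 6.95% of all windows and in 0 of the 4 Pim windows. The CRE TGACGTCA, the TATA box TATAAA and the NF-kB motif, in 1.79%, 13.6% and 4.51% of all windows, also had 0 matches in the 4. The motifs marked here overlap at no base, and these matches describe letters in 300 bases and nothing further away.

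**Figure D1:**
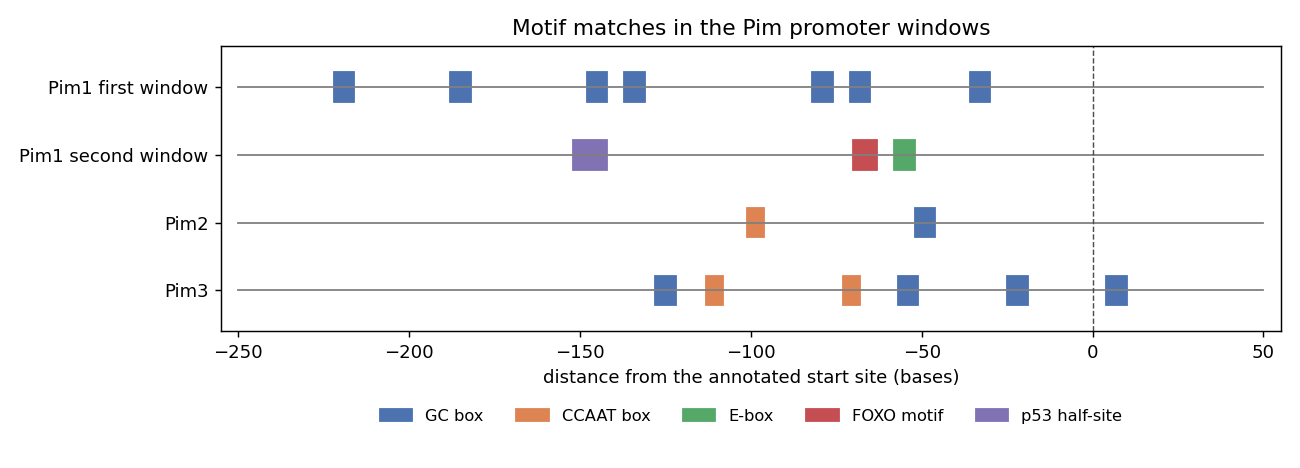
Motif matches in the 4 Pim promoter windows, plotted by distance in bases from the annotated start site (dashed line). GC boxes (7) fill the first Pim1 window, and the E-box, the FOXO motif and the p53 half-site all lie in the second Pim1 window.

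Values are normalized log2 levels, from intensities that were background corrected and quantile normalized as described in the processing summary. A probe counts as detected on an array at a detection p under 0.01. A difference is called where the p adjusted over all 21413 probes kept is at most 0.1 and B, the log odds that limma gives for a difference, is above 0. With 3 arrays in each of 2 groups an exact permutation test cannot give a p below 0.1, so the tests rest on the limma model over all probes, and precision is limited by how many arrays there were. In bulk RNA such as this, fewer cells with a transcript and less of it per cell cannot be told apart.
Between 30.69% and 34% of probes were detected on 17 of the arrays, and 27.01% on the third p53-/- array at 18 h, which also had the lowest median intensity, 102.9 against 122.1 to 175.2 on the others. It entered the fit with an array weight of 0.0905, the lowest. The highest was 4.34, for the second WT array at 0 h, where the other WT arrays had 0.786 and 0.9065. The p53-/- arrays at 0 h had 0.566 to 0.631, so the counts of calls against 0 h rest on unequal precision in the 2 genotypes. Of 12 genes of myeloid progenitors, Ms4a3, Ctsg, Cebpa, Prtn3 and Spi1 were detected on all 0 h arrays of both genotypes, while Kit, the stem cell factor receptor of early progenitors, was undetected on all of them. None of the 12 was called between the genotypes at 0 h, but they were not all alike. Mpo was 5.62 log2 units higher in p53-/- than in WT cells, and only B (-2.12) kept it from being called. Elane was 1.34 units higher, while Cd34 (-1.29), Ptprc (-1.09) and Itgam (-0.86) were lower. The log2 of the summed level of the 12 was 15.35 to 15.45 in p53-/- and 15.52 to 15.73 in WT cells. Genotype rests on the sample labels, since probes for the deleted gene are not analysed here.

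All 3 Pim genes fell within 6 h of IL-3 withdrawal in p53-/- and in WT cells, and none was called between 6 and 18 h. On their brightest probes the falls at 6 h were 3.33-fold for Pim1, 2.70-fold for Pim2 and 2.92-fold for Pim3 in p53-/- cells, and 3.41-fold, 4.01-fold and 3.43-fold in WT cells. Between the genotypes only Pim1 was called. Its level in p53-/- cells was below that in WT cells by 2.31-fold while IL-3 was present and by 2.25-fold at 6 h without it.

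Pim1 encodes the kinase that cooperates with Myc in mouse lymphomas. In p53-/- cells its log2 level on the 3 arrays was 9.01, 8.85 and 8.38 at 0 h, 6.79, 7.15 and 7.22 at 6 h, and 7.86, 7.83 and 5.24 at 18 h. In WT cells it was 10.01, 9.95 and 9.85 at 0 h, 7.75, 8.36 and 8.36 at 6 h, and 8.41, 8.23 and 8.27 at 18 h. At each time the 3 p53-/- arrays all lay below the 3 WT arrays, and in both genotypes all 0 h arrays lay above all later ones. The lowest value of all, 5.24, came from the third p53-/- array at 18 h, the only array on which Pim1 was not detected.
From low to high, the group means were 6.98 ± 1.5 and 7.05 ± 0.23 in p53-/- cells at 18 and 6 h (SD, n = 3 in each group), 8.15 ± 0.35 and 8.30 ± 0.09 in WT cells at 6 and 18 h, 8.75 ± 0.33 in p53-/- cells at 0 h and 9.94 ± 0.08 in WT cells at 0 h. Neighbors in this order had overlapping ranges, except that all p53-/- arrays at 6 h lay below the WT arrays at 6 h and all p53-/- arrays at 0 h below the WT arrays at 0 h. The ranges of Pim1 in p53-/- cells with IL-3 present and in WT cells 18 h without IL-3 thus overlapped, but only narrowly. The lowest p53-/- value was 8.38 and the highest WT value 8.41, with means of 8.75 and 8.30.
At 0 h Pim1 had a log2 change of -1.21 in p53-/- against WT cells (standard error 0.27, adjusted p = 0.00991 in limma, B = 0.118), where 2.35% of all probes were called lower. At 6 h it had one of -1.17 (standard error 0.22, adjusted p = 0.00151), where 4.23% were called lower. At 18 h the change was -0.52 (95% interval -1.05 to -0.0016, adjusted p = 0.152) and was not called, although the 2 groups did not overlap. Its size depended on single p53-/- arrays of that time, of which the third had a weight of 0.0905 in the fit. It reached -1.74 without the first or second, was -0.44 without the third and -1.33 with no array weights, and was called in none of these fits.
The call at 0 h was close to its threshold. It was lost when any of 14 of the 18 arrays was left out in turn, these being all 3 WT and all 3 p53-/- arrays at 0 h, the third WT and the second and the third p53-/- arrays at 6 h, and all WT and the first 2 p53-/- arrays at 18 h, with log2 changes of -1.33 to -1.01 and an adjusted p of 0.104 at most. It was also lost with clone as a random block (-1.15, adjusted p = 0.0145), with no filter on detection (-1.18, adjusted p = 0.0501) and with no array weights (-1.19, adjusted p = 0.184), and kept without the third p53-/- array at 18 h (-1.20, adjusted p = 0.00393). Of the 6 h arrays, the second and the third of WT and the first and second of p53-/- cells were each needed for the call at 6 h, where the adjusted p was 0.0436 at most.
Some markers of other blood cells differed between the genotypes as well. At 0 h, where 2.67% of all genes were called lower and 2.13% higher, of 5 measured mast cell and basophil genes 2 were lower in p53-/- than in WT cells (Fcer1a, a chain of the IgE receptor, and Cpa3, a mast cell protease), and the log2 of their summed level was 15.03 to 15.29 in p53-/- and 15.65 to 16.01 in WT cells. Of 2 macrophage genes 1, the surface marker Adgre1, was lower, with summed levels of 7.24 to 8.35 in p53-/- and 9.98 to 11.73 in WT cells, and Marco was undetected in both. None of 5 erythroid and megakaryocyte genes was called, but their summed level was 14.27 to 15.69 in p53-/- and 12.96 to 13.57 in WT cells. These genes did not move as one, with log2 changes of 7.49 for Hba-a1 (standard error 1.94), 3.55 for Klf1, 2.35 for Gata1, 0.21 for Itga2b and -0.39 for Pf4. Only B kept Hba-a1 (adjusted p = 0.0202), Gata1 (adjusted p = 0.0982) and Klf1 (adjusted p = 0.0989) from being called. Of 2 lymphoid genes none was called, with summed levels of 6.20 to 9.07 in p53-/- cells and 6.06 to 6.43 in WT cells, where Cd3d was undetected. At 6 h the erythroid and megakaryocyte sums were 14.72 to 15.44 in p53-/- and 13.22 to 13.85 in WT cells, the mast cell and basophil sums 15.05 to 15.35 in p53-/- and 15.99 to 16.06 in WT cells, and the macrophage sums 7.28 to 8.17 in p53-/- and 10.19 to 11.39 in WT cells. Fcer1a (-1.75), Cpa3 (-2.23) and Adgre1 (-3.26) were again called lower in p53-/- cells at 6 h, where 5% of all genes were. No erythroid, megakaryocyte or lymphoid gene was called at 6 h, and the lymphoid sums were 6.54 to 9.23 in p53-/- and 5.98 to 6.42 in WT cells. The log2 changes at 6 h were 6.83 for Hba-a1, 3.82 for Klf1, 2.01 for Gata1, 0.49 for Pf4 and -0.42 for Itga2b. Again only B kept Hba-a1 (adjusted p = 0.00545), Klf1 (adjusted p = 0.0201), Gata1 (adjusted p = 0.0569) and Itga2b (adjusted p = 0.0843) from being called. The same held for the lymphoid gene Cd79b, undetected in WT cells at 6 h and higher in p53-/- cells (adjusted p = 0.0254). The part of these differences in the level of Pim1 was not tested.

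**Figure D2:**
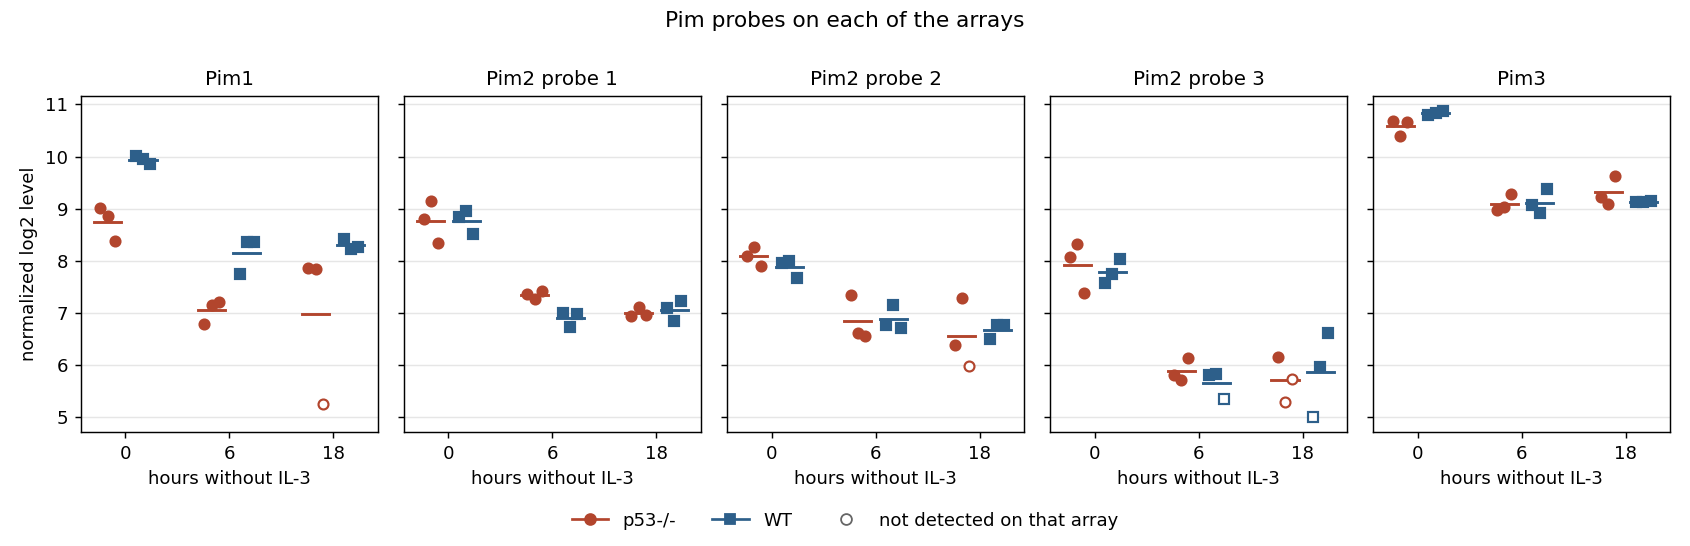
Normalized log2 level of each Pim probe on each of the 18 arrays, by hours without IL-3, with p53-/- cells as red circles left of WT cells as blue squares. Bars are group means of 3 arrays, and open symbols mark arrays on which the probe was not detected. All 5 probes are highest at 0 h, and for Pim1 the p53-/- symbols lie below the WT symbols at every time.

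Pim1 fell at 6 h in both genotypes. The log2 change from 0 h was -1.73 in p53-/- cells (standard error 0.29, adjusted p = 0.00542), where 0.985% of all probes were called lower, and -1.77 in WT cells (standard error 0.19, adjusted p = 2.71e-05), where 3.82% were. Within a genotype, equal replicate numbers were taken to mark 1 clone followed over time, which the labels do not state. Clone by clone the changes were then -2.21, -1.71 and -1.17 in p53-/- and -2.27, -1.59 and -1.49 in WT cells, so all 6 clones moved down. The difference between the genotypes in this change was 0.04 on the log2 scale (95% interval -0.70 to 0.77, adjusted p = 0.989).
Between 6 and 18 h the clones of p53-/- cells split. Pim1 had log2 changes of 1.07 and 0.68 in the first and second clone and of -1.97 in the third, whose 18 h array had few detected probes. The fit, which gives that array little weight, put the change at 0.75 (standard error 0.25, adjusted p = 0.15), and without it the change was 0.85 (adjusted p = 0.0537), neither of them called. The first and second 18 h arrays carry this value, since without the one or the other the fitted change was negative, at -0.46 at the lowest. WT cells had 0.66, -0.12 and -0.09 and a fitted change of 0.11 (standard error 0.21, adjusted p = 0.773). In this comparison 1.47% of all probes were called in either direction in p53-/- and 8.02% in WT cells.
Against 0 h, Pim1 at 18 h had a log2 change of -0.98 in p53-/- cells (standard error 0.31, adjusted p = 0.0603, B = -2.42), which was not called and reached -2.19 without the first or second p53-/- array at 18 h (again not called), and of -1.66 in WT cells (standard error 0.20, adjusted p = 9.44e-06), which was. The share of probes called lower was 2.23% in p53-/- and 9.34% in WT cells. The difference between these 2 changes was 0.68 (95% interval -0.10 to 1.46, adjusted p = 0.338) and was not called, while on the log2 table that was deposited already processed it was called (0.58, adjusted p = 0.0253).

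Pim2 encodes a kinase that acts on protein synthesis and survival in blood cells. On probe 1 its log2 level in p53-/- cells was 8.79, 9.14 and 8.34 at 0 h, 7.36, 7.26 and 7.42 at 6 h, and 6.93, 7.11 and 6.95 at 18 h. In WT cells it was 8.84, 8.95 and 8.51 at 0 h, 7.003, 6.73 and 6.98 at 6 h, and 7.10, 6.84 and 7.23 at 18 h. The 0 h arrays stood above all others and the genotypes overlapped at 0 and 18 h, while at 6 h all 3 p53-/- arrays lay above the WT arrays. The group means were 8.76 ± 0.40, 7.35 ± 0.08 and 6.998 ± 0.10 in p53-/- cells at 0, 6 and 18 h and 8.77 ± 0.23, 6.90 ± 0.15 and 7.06 ± 0.20 in WT cells (SD, n = 3 in each).
At 6 h against 0 h, probe 1 of Pim2 fell by 1.43 on the log2 scale in p53-/- cells (standard error 0.22, adjusted p = 0.0029) and by 2.00 in WT cells (standard error 0.15, adjusted p = 5.76e-07). In WT cells its p ranked 13 of 21413 probes. By 18 h it had fallen by 1.73 in p53-/- cells (adjusted p = 0.000569) and by 1.91 in WT cells (adjusted p = 2.65e-07), and clone by clone the changes at 18 h were -1.87, -2.03 and -1.39 in p53-/- and -1.74, -2.11 and -1.27 in WT cells. The call in p53-/- cells at 18 h needed both well-detected arrays, and it was lost without the first (adjusted p = 0.299) or the second (adjusted p = 0.361).
Probe 3, the dimmest, had log2 levels of 7.38 to 8.31 at 0 h, 5.70 to 6.13 at 6 h and 5.28 to 6.14 at 18 h in p53-/- cells, and of 7.56 to 8.02, 5.35 to 5.83 and 5.005 to 6.61 in WT cells. It was detected on 3 of 3 p53-/- arrays and 2 of 3 WT arrays at 6 h, and on 1 of 3 and 2 of 3 at 18 h. It fell by 2.12 at 6 h in p53-/- cells (adjusted p = 0.00691) and fell by 2.05 in WT cells (adjusted p = 5.77e-05). Without the first or second p53-/- array at 6 h, the p53-/- call was lost. At 18 h it was lower than at 0 h too, with log2 changes of -2.24 in p53-/- (adjusted p = 0.00279) and -1.95 in WT cells (adjusted p = 2.08e-05), and the p53-/- call was lost without the second p53-/- array at 0 h or the first or second at 18 h.
Probe 2 had log2 levels of 7.91 to 8.27 at 0 h, 6.56 to 7.33 at 6 h and 5.98 to 7.29 at 18 h in p53-/- cells, and of 7.67 to 7.99, 6.70 to 7.16 and 6.49 to 6.77 in WT cells, so its 0 h arrays too were above all later ones. At 6 h its log2 change was -1.17 in p53-/- cells (adjusted p = 0.0513, B = -1.13), which was not called, and -1.002 in WT cells (adjusted p = 0.00378), which was. The WT call was lost without any of the 3 WT arrays at 0 h or without the first or the third at 6 h, with an adjusted p of 0.166 at most, and also with median scaling, with no filter on detection and with no array weights, whether or not the third p53-/- array at 18 h was left out. At 18 h the changes from 0 h were -1.24 in p53-/- cells (adjusted p = 0.0291, B = -1.27), again not called, and -1.24 in WT cells (adjusted p = 0.00026), a call lost without the first or second WT array at 0 or 18 h and with no array weights. With clone as a fixed block probe 2 was called in p53-/- cells at 6 h (-1.25, adjusted p = 0.00322) and at 18 h (-1.56, adjusted p = 0.000888). Its p53-/- call was also gained at 6 h on the authors' processed values and at 18 h with no array weights or no condition on B.
Between the genotypes no Pim2 probe was called at any time. At 6 h probe 1 had a log2 change of 0.46 in p53-/- against WT cells (95% interval 0.11 to 0.80, adjusted p = 0.0571, B = -3.4), while probes 2 and 3 had -0.02 (95% interval -0.51 to 0.47) and 0.09 (95% interval -0.50 to 0.67). The difference between the genotypes in the change at 6 h was 0.57 on probe 1 (95% interval 0.02 to 1.12, unadjusted p = 0.0447 in limma, adjusted p = 0.554), and was not called. On probes 2 and 3 it was -0.17 and -0.07, so the 3 probes did not share a direction. At 0 h the interval of the genotype difference was -0.55 to 0.32 on probe 1.

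Pim3 encodes the family member first described as a kinase induced by depolarization in rat cells. Its log2 level in p53-/- cells was 10.69, 10.40 and 10.67 at 0 h, 8.98, 9.04 and 9.28 at 6 h, and 9.23, 9.08 and 9.63 at 18 h. In WT cells it was 10.79, 10.84 and 10.87 at 0 h, 9.07, 8.91 and 9.37 at 6 h, and 9.13, 9.13 and 9.15 at 18 h. It was detected on all 18 arrays, the third p53-/- array at 18 h included, where it was the highest of the later arrays. All 0 h arrays stood above all later arrays, and at 6 and 18 h the genotypes overlapped. The 4 later groups had means of 9.10 ± 0.16 in p53-/- cells at 6 h, 9.11 ± 0.23 in WT cells at 6 h, 9.14 ± 0.0094 in WT cells at 18 h and 9.32 ± 0.29 in p53-/- cells at 18 h (SD, n = 3 in each), all overlapping with their neighbors, below 10.59 ± 0.16 in p53-/- and 10.83 ± 0.04 in WT cells at 0 h.
Pim3 fell at 6 h by 1.54 on the log2 scale in p53-/- cells (standard error 0.18, adjusted p = 0.000273), where its p ranked 13 of all probes, and by 1.78 in WT cells (standard error 0.12, adjusted p = 2.88e-07), where it ranked 6. Clone by clone the changes were -1.71, -1.37 and -1.39 in p53-/- and -1.72, -1.93 and -1.50 in WT cells. At 18 h it was still lower than at 0 h, by 1.42 in p53-/- (adjusted p = 0.000518) and 1.71 in WT cells (adjusted p = 1.02e-07). The 18 h call in p53-/- cells was lost without the first (adjusted p = 0.358) or the second (adjusted p = 0.474) p53-/- array of that time.
With IL-3 present the 3 p53-/- arrays of Pim3 lay just below the 3 WT arrays, but the log2 change of -0.26 (95% interval -0.61 to 0.09, adjusted p = 0.346) was not called. At 6 and 18 h the changes were -0.02 (95% interval -0.30 to 0.26) and 0.03 (95% interval -0.28 to 0.35). The difference between the genotypes in the change at 6 h was 0.23 (95% interval -0.21 to 0.68, adjusted p = 0.793). Whether the genotype difference of Pim1 exceeds that of Pim2 or Pim3 was not tested.

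**Figure D3:**
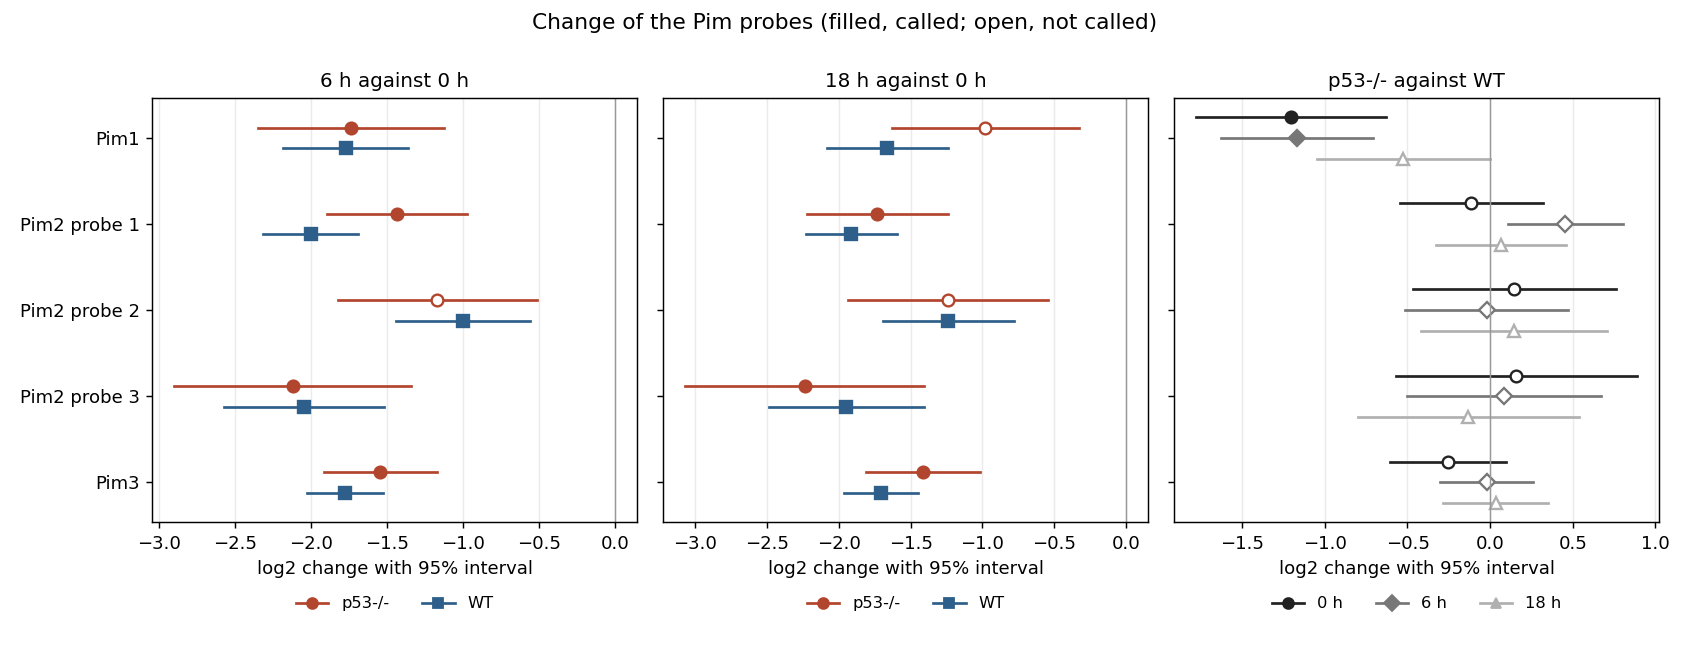
Log2 change of each Pim probe with its 95% interval, at 6 h against 0 h, at 18 h against 0 h, and in p53-/- against WT cells at each time. Filled symbols were called and open ones were not, with p53-/- cells (circles) above WT cells (squares) in the first 2 panels. All points of the first 2 panels lie below 0, and in the third panel only Pim1 at 0 and 6 h is filled.

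Over all 5 probes, 4 were called lower in p53-/- cells at 6 h and 5 in WT cells, where 0.985% and 3.82% of all probes were. At 18 h against 0 h, 3 of 5 were called lower in p53-/- and 5 of 5 in WT cells, against 2.23% and 9.34% of all probes. In p53-/- against WT cells, 1 of 5 was called lower at 0 h, 1 of 5 at 6 h and 0 of 5 at 18 h, where 3.75% of all probes were called lower. None of the 5 was called in the differences between genotypes, where 0.014% of all probes were called in either direction for the change in the first 6 h, 1.27% for the change after 6 h and 1.31% for the whole 18 h.
Without array weights, when the third p53-/- array at 18 h counts as much as the rest, Pim1 was called in no comparison. The log2 changes were then -1.70 in p53-/- and -1.78 in WT cells at 6 h against 0 h. With that array also left out, the calls of Pim1 were the same as those given above.

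The members resembled each other to different degrees over the 18 arrays. Pearson's r between Pim2 (probe 1) and Pim3 was 0.92, between Pim1 and Pim2 0.66 and between Pim1 and Pim3 0.65, as a description over arrays that share clones, times and normalization. Each array counted equally in r, also the third p53-/- array at 18 h, where Pim1 was undetected. After the group means were taken away r was -0.16, 0.18 and -0.56. On the third p53-/- array at 18 h Pim1 lay below its group mean (5.24 against 6.98) and Pim3 above it (9.63 against 9.32). This lowers the last value, and the r of Pim1 over all 18 arrays rests on that array too. Since r between the members is not given without it, whether Pim1 then still resembles the others less was not tested.
The 5 named genes whose brightest probe was most like that of Pim1, among 5921 genes detected on all arrays (5920 for Pim2 and Pim3), were Tmem185b (r = 0.927), Chpf, a factor for chondroitin chain synthesis (r = 0.922), Mogs, a glucosidase that trims new N-glycans (r = 0.90), Lman1, a cargo receptor between endoplasmic reticulum and Golgi (r = 0.899), and Atad1, an ATPase of the outer mitochondrial membrane (r = 0.894).
Most like Pim2 were Atf4, a transcription factor of the response to amino acid and endoplasmic reticulum stress (r = 0.943), Pim3 itself (r = 0.922), Polr3e, a subunit of RNA polymerase III (r = 0.918), Srsf6, a splicing factor (r = 0.917), and Nifk, a nucleolar protein (r = 0.902).
Most like Pim3 were Telo2, which helps assemble mTOR and related kinases (r = 0.946), Cd69, an early activation antigen (r = 0.936), Atf4 again (r = 0.933), 2410002F23Rik (r = 0.930) and Ergic1, a protein of the compartment between endoplasmic reticulum and Golgi (r = 0.926). Atf4 thus stood among the 5 genes closest to both Pim2 and Pim3, and Pim1 had none of its 5 in common with either. The lists count all 18 arrays equally, and whether the Pim1 list holds without the array on which Pim1 was undetected was not tested. No p is given for these values.

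The mRNAs of the pathway above Pim transcription were mostly not called as changed. Of 13 measured genes for IL-3 receptor chains, JAK kinases, STAT factors and their adaptors, none was called at 6 h against 0 h in p53-/- or WT cells, with median log2 changes of -0.09 and 0.26 (-0.02 and 0.03 over all genes). Csf2rb, the signaling chain shared by the IL-3, IL-5 and GM-CSF receptors, had log2 changes of -0.11 in p53-/- (adjusted p = 0.959) and 0.66 in WT cells (adjusted p = 0.261). Stat5a had -0.01 in p53-/- (adjusted p = 0.994) and 0.28 in WT cells (adjusted p = 0.11). Only B kept Stat3 (0.83, adjusted p = 0.0236, B = -1.95) and Csf2rb2 (0.93, adjusted p = 0.0762, B = -3.59) from being called higher in WT cells. In p53-/- cells Stat3 had 0.72 (adjusted p = 0.289) and Csf2rb2 had 0.20 (adjusted p = 0.908). In other comparisons 2 calls were made, of Jak2, the kinase bound to the IL-3 receptor, in p53-/- against WT cells at 6 h (-0.89, adjusted p = 0.00449), where 5% of all genes were called lower, and of Jak3 in WT cells at 18 h against 0 h (1.18, adjusted p = 0.000455), where 7.61% were called higher. Neither call was tried under other settings. In p53-/- against WT cells at 0 h, Il3ra (-1.02), Jak1 (-0.97), Tyk2 (0.64) and Shc1 (0.70) had an adjusted p of 0.058 to 0.0934. A negative B alone kept them from being called. All are mRNA levels and say nothing of phosphorylation.
Some other genes that cytokines induce, many through STAT5, fell beside the Pim genes. Of 20 measured, 7 were called lower and 0 higher in p53-/- cells at 6 h and 10 lower and 1 higher in WT cells, with median log2 changes of -1.004 and -1.06. Among all genes 1.08% were called lower in p53-/- and 4.26% in WT cells. The list was written with earlier results of these arrays known, so its direction is no independent evidence.
Cish, the SH2 protein that feeds back on STAT5 signaling, fell by 2.01 on the log2 scale in p53-/- cells (standard error 0.17, adjusted p = 1.82e-05) and fell by 2.21 in WT cells (standard error 0.11, adjusted p = 1.93e-08). Myc, the growth regulator, fell by 3.30 in p53-/- (adjusted p = 0.00088) and 4.23 in WT cells (adjusted p = 4.04e-07), and Cd69 had log2 changes of -4.39 in p53-/- (adjusted p = 2.55e-05) and -3.28 in WT cells (adjusted p = 1.2e-06). The immediate early gene Fos, undetected on all 3 p53-/- arrays at 6 h, was lower there than at 0 h (log2 level 8.69 ± 0.18, SD, n = 3) by at least 8.47-fold (adjusted p = 9.13e-05), and fell by 2.34 in WT cells (adjusted p = 2.71e-05). Such a bound compares the brighter group's mean with, on each array of the dimmer group, whichever is higher of the probe's own signal and the weakest signal of any detected probe.
The gene that rose in WT cells was Bcl6, a transcriptional repressor that STAT5 holds down, which was undetected on all 3 WT arrays at 0 h and at least 5.33-fold higher at 6 h (adjusted p = 0.00124). This call was lost without the second WT array at 0 h and under 6 other settings, among them no background correction and no array weights. In p53-/- cells it was undetected at 0 h too, and at least 1.55-fold higher at 6 h without being called (adjusted p = 0.131). Of the survival genes in the list, Bcl2 was called lower in p53-/- (-1.55, adjusted p = 0.0197) and in WT cells (-1.57, adjusted p = 0.000174). This call was lost in 5 of 29 alternative fits in p53-/- cells and in 1 in WT cells. Bcl2l1 had log2 changes of -1.01 in p53-/- (adjusted p = 0.0494) and -0.65 in WT cells (adjusted p = 0.0196), neither called because B was negative. Mcl1 had log2 changes of 0.12 in p53-/- (adjusted p = 0.865) and 0.17 in WT cells (adjusted p = 0.514).

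**Figure D4:**
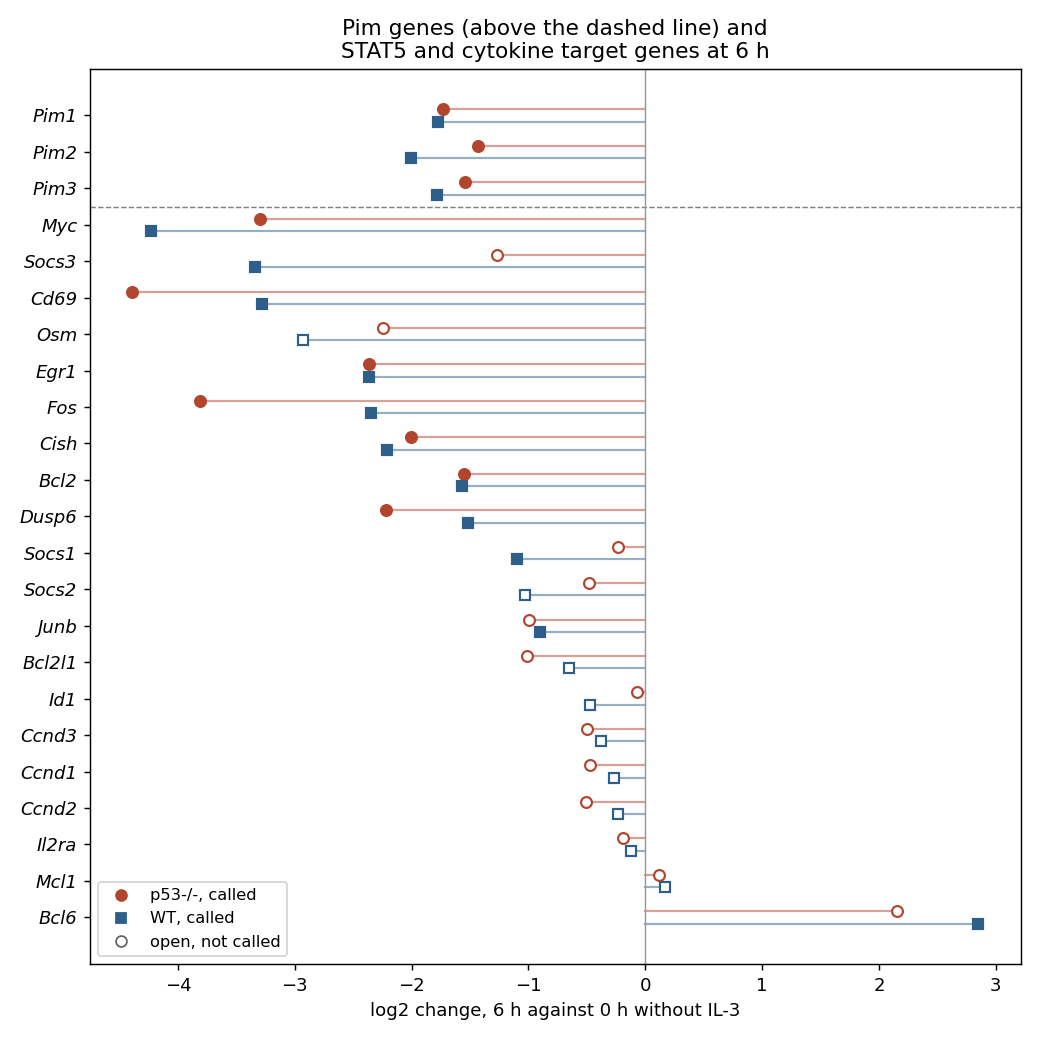
Log2 change at 6 h against 0 h of the 3 Pim genes (above the dashed line, brightest probes) and of 20 STAT5 and cytokine target genes, with p53-/- cells as circles above WT cells as squares. Filled symbols were called, and the fitted points of Fos in p53-/- cells and of Bcl6 in both rest on a group where the probe was undetected. The Pim genes lie among the genes that fell, and Bcl6 is the gene called higher in WT cells.

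Part of this list was, like Pim1, called lower in p53-/- cells with IL-3 present. The paper had already reported Cish, Socs1 and Socs3 as higher in WT cells on these arrays, and the list was written with earlier results known. The count that follows is thus no independent evidence. At 0 h, 5 of the 20 genes were called lower in p53-/- than in WT cells and 0 higher, with a median log2 change of -0.37, where 2.67% of all genes were called lower and the median was 0.04. They were Cish, Socs1 and Socs3, which feed back on cytokine receptors, Fos, and Dusp6, a phosphatase of ERK. The log2 change was -1.11 for Cish (adjusted p = 0.000994), -1.05 for Socs1 (adjusted p = 0.00398), -3.41 for Socs3 (adjusted p = 0.00257), -1.80 for Fos (adjusted p = 0.0052) and -1.92 for Dusp6 (adjusted p = 0.00385). Myc had a log2 change of 0.60 (adjusted p = 0.379) and Cd69 of 0.25 (adjusted p = 0.718), so the list did not move as one. Cish kept its call in all 28 alternative fits. Socs1 lost it without the first or second WT or the first p53-/- array at 0 h, Socs3 without the second WT or the first p53-/- array, Fos without any WT array or the second or the third p53-/- array, and Dusp6 without the first or second WT array or the third p53-/- one. Socs1 and Dusp6 also lost it without array weights and with only the groups compared, and Dusp6 with no filter on detection.
Of 17 measured genes for Pim substrates and partners, none was called at 6 h in p53-/- cells, and 3 were called higher and 0 lower in WT cells, where 2.65% of all genes were called higher. These were Cxcr4, the CXCL12 receptor whose surface level PIM1 sustains in human leukemia cells (1.24, adjusted p = 0.00024), Cdkn1b, which encodes the cell cycle inhibitor p27 (1.02, adjusted p = 0.00235), and Numa1, a spindle protein (0.76, adjusted p = 0.00346). In p53-/- cells the log2 change was 0.95 for Cxcr4 (adjusted p = 0.0628), 0.62 for Cdkn1b (adjusted p = 0.27) and 0.29 for Numa1 (adjusted p = 0.576), none called. The difference between the genotypes in this change was -0.29 for Cxcr4 (adjusted p = 0.845), -0.39 for Cdkn1b (adjusted p = 0.793) and -0.47 for Numa1 (adjusted p = 0.651). None of these differences was called. Bad, the apoptosis inducer that Pim kinases phosphorylate, had log2 changes at 6 h of 0.42 (adjusted p = 0.484) in p53-/- and 0.11 (adjusted p = 0.763) in WT cells.
The calls of these 3 genes in WT cells depended on the settings and on single arrays. Cxcr4 lost its call in 4 of 29 alternative fits, Cdkn1b in 11 and Numa1 in 8, for all 3 with median scaling and with no array weights, and for Cdkn1b also on the authors' processed values (0.29), with no filter on detection and, like Numa1, with only the groups compared. Of single arrays, Cxcr4 lost it without the second WT array at 0 h, Cdkn1b without any of the 3 WT arrays at 0 h or the second or the third at 6 h, and Numa1 without 1 of the last 2 WT arrays at 0 h or the first 2 at 6 h. At 0 h, where 2.13% of all genes were called higher in p53-/- than in WT cells, 1 gene of the list was, the mitotic phosphatase gene Cdc25c (1.48, adjusted p = 0.00806), and 1 was lower, Cdkn1a, which encodes the cell cycle inhibitor p21 (-3.02, adjusted p = 0.00304). Cdc25c lost its call in 10 of 28 alternative fits, among them median scaling, no array weights and each fit without 1 p53-/- array at 0 h, and Cdkn1a without the first or second WT or the first p53-/- array at 0 h.
Of 7 measured genes for kinases that act beside Pim, only Sgk1, a kinase close to Akt, was called at 6 h against 0 h or between the genotypes at 0 h. Of all genes 1.08% were called lower in p53-/- cells at 6 h and 2.13% higher in p53-/- than in WT cells at 0 h. Sgk1 was higher in p53-/- than in WT cells at 0 h (2.59, adjusted p = 0.00283) and fell at 6 h in p53-/- cells (-2.57, adjusted p = 0.0116), while WT cells had -1.19 (adjusted p = 0.0198), which was not called. The difference between the genotypes in this fall was -1.38 (adjusted p = 0.527) and was not called either. The fall in p53-/- cells lost its call without the third p53-/- array at 0 h or the first or second at 6 h, and the difference at 0 h without the second or the third array of WT cells or the third of p53-/- cells at that time. Akt2 had 0.12 (adjusted p = 0.838) in p53-/- and -0.03 (adjusted p = 0.924) in WT cells at 6 h, and Mtor, the growth kinase, 0.14 in p53-/- (adjusted p = 0.882) and 0.16 in WT cells (adjusted p = 0.669).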

How the data were processed

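RNA from p53-/- and WT FDM cells was measured on 18 arrays of the Illumina MouseWG-6 V1 type, each with 46632 probes. Intensity values are those the authors deposited as bead averages, not normalized between arrays. The detection values deposited with them are a fraction that equals 1 minus the detection p, and were turned back into p. A log2 table that the authors processed with lumi and quantile normalized was also deposited and used only as an alternative.

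Intensities were background corrected with nec in limma 3.58.1 (R 4.3.3; normexp from detection p, offset 16), quantile normalized and log2 transformed. Probes with a detection p under 0.01 on any array, 21413 in all, were kept, of which 16268 carried 1 symbol, for 11195 genes, each represented by its brightest probe. Of all probes 29976 carried 1 symbol, 10 several and 16646 none. Array weights were estimated, lmFit and eBayes were run on the 18 arrays together with a mean for each of the 6 groups, and 12 comparisons were taken from it, including the differences between genotypes in the changes over time. P-values were two-sided and Benjamini-Hochberg adjusted over all probes kept.

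Clones were paired within a genotype by replicate number, since deviations from group means correlated at 0.276 to 0.756 (18 pairs), and not between genotypes (-0.0417 to 0.0336, 9 pairs). Names were updated from RefSeq, where 17695 of 17711 symbols matched and 14 more as older symbols. Genes are named by a rule: all Pim probes, up to 4 genes of each list with the smallest p among those called at 6 h against 0 h with others where needed to say what was not called, and the 5 genes most like each member. The 5 list genes called at 0 h, Jak2, Jak3, Cdc25c, Cdkn1a, Snd1 and the 3 marker genes were named after their values were seen. So were Bcl2, Bcl2l1, Stat3, Csf2rb2, Il3ra, Jak1, Tyk2, Shc1 and Cd79b. The members and lists were chosen with earlier results of these data known. The procedure was checked on simulated data. Python 3.11.15 and matplotlib 3.10.9 drew the figures. There were 0 identical pairs of arrays and 0 columns without a sample.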

Additional observations from a re-analysis of the deposited data

Results flagged for a closer look

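No Pim probe was called for a genotype difference in its change over time, apart from Pim1 on the authors' processed values (0.58 at 18 h against 0 h). Of the lists, 1 of 20 cytokine target genes was called for the change from 6 to 18 h, where 1.13% of all genes were, and 1 of 20 cytokine target genes and 2 of 17 substrates and partners for that from 0 to 18 h, where 1.38% were. From 6 to 18 h, Fos had a genotype difference of 2.198 on the log2 scale (adjusted p = 0.023 in limma), with log2 levels of 4.83 and 4.73 in p53-/- cells, undetected at both times, against 8.03 and 6.16 in WT cells, so the p53-/- change is between values below detection. From 0 to 18 h, Socs1 had a difference of 1.236 (adjusted p = 0.0309), with 8.18 and 8.33 in p53-/- against 9.17 and 7.90 in WT cells. Numa1 had one of -1.396 (adjusted p = 0.0283), with 8.80 and 9.46 in p53-/- against 8.53 and 10.33 in WT cells, and Snd1, a nuclease and coactivator that binds Pim1, one of -1.632 (adjusted p = 0.0201), with 9.47 and 8.49 in p53-/- against 8.88 and 9.05 in WT cells. Each was called in 16 to 23 of 29 alternative fits, and each lost the call without the first or the second p53-/- array at 18 h.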

How the results depend on the processing

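Of 60 Pim results (5 probes in 12 comparisons), all 60 kept their sign and call when probes had to be detected on at least 3 arrays, 59 with an adjusted p under 0.05 and no condition on B, 59 with only the groups compared in the fit, 58 with clone as a random block, 56 with no filter on detection and 44 with no array weights. Log2 changes follow, and the cause of these shifts was not tested.

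With no array weights Pim1 lost its calls at 6 h against 0 h in p53-/- (-1.70) and WT cells (-1.78), at 18 h against 0 h in WT cells (-1.63), and in p53-/- against WT cells at 0 h (-1.19) and 6 h (-1.10). Signs changed for Pim1 in p53-/- cells at 18 h against 6 h (-0.074) and in the genotype differences at 18 h against 6 h (-0.23) and 0 h (-0.14), for Pim2 probe 1 in p53-/- against WT cells at 18 h (-0.060) and the genotype difference at 18 h against 0 h (-0.056), for probe 2 in p53-/- against WT cells at 18 h (-0.12) and the difference at 18 h against 6 h (-0.075), and for probe 3 in the difference at 6 h against 0 h (0.067). With the third p53-/- array at 18 h also left out, an alternative chosen after the data were seen, signs changed for Pim2 probe 1 in p53-/- against WT cells at 18 h (-0.037) and the difference at 18 h against 0 h (-0.032), for probe 2 in p53-/- cells at 18 h against 6 h (0.0079) and for probe 3 in the difference at 6 h against 0 h (0.071).
With no filter on detection Pim1 lost its calls between the genotypes at 0 h (-1.18) and 6 h (-1.13), Pim2 probe 2 lost its WT call at 6 h against 0 h (-0.9985), and probe 3 had 0.0030 for the difference at 6 h against 0 h. With only the groups compared Pim1 lost the genotype call at 6 h (-1.17). Median scaling turned Pim2 probe 2 in p53-/- against WT cells at 0 h (-0.021), in p53-/- cells at 18 h against 6 h (0.22) and in the difference at 18 h against 0 h (0.45), probe 3 in p53-/- against WT cells at 0 h (-0.16) and the difference at 6 h against 0 h (0.31), and Pim3 in p53-/- against WT cells at 18 h (-0.20), in p53-/- cells at 18 h against 6 h (-0.15) and in the difference between these times (-0.17). On the authors' processed values Pim1 gained a call for the genotype difference at 18 h against 0 h (0.58), and Pim2 probe 2 had 0.0021 in p53-/- against WT cells at 6 h.
With clone as a fixed replicate block the genotype differences turned for Pim2 probe 2 at 18 h against 6 h (-0.071) and probe 3 at 6 h against 0 h (0.37), probe 2 gained 2 calls in p53-/- cells, and 41 of 45 results stayed as they were. With the random replicate block (correlation 0.246) Pim1 lost the genotype call at 0 h (-1.15), and its difference at 6 h against 0 h was -0.0041. Genotypes were not paired, since equal numbers did not correlate between them.
The span from the highest to the lowest group mean was 2.05 for Pim1, 1.16 for Pim2 probe 1 and 1.52 for Pim3 with no background correction, 1.46, 0.73 and 1.33 on the authors' processed values, and 2.13 for Pim2 probe 1 and 1.95 for Pim3 with median scaling, against 2.96, 1.86 and 1.74 as reported. For Pim2 probes 2 and 3 the span was 1.53 and 2.265 as processed here. It was 0.80 and 1.03 with no background correction, and 0.45 and 0.56 on the authors' processed values.
Over all probes, 363 were called in p53-/- cells at 6 h against 0 h (182 with only the groups compared to 1449 with the fixed block) and 1367 in WT cells (281 with no array weights to 3490 with no condition on B). At 18 h against 0 h 766 were called in p53-/- (350 to 2205) and 3903 in WT cells (1316 to 8419), and at 18 h against 6 h 314 (123 to 1712) and 1718 (400 to 4430). Between the genotypes 927 were called at 0 h (445 to 2712), 1724 at 6 h (549 to 4680) and 1590 at 18 h (720 to 4319), and for the genotype differences 3 at 6 h against 0 h (0 to 350), 271 at 18 h against 6 h (1 to 761) and 280 at 18 h against 0 h (8 to 1171).
Probe 2 also lost its WT call at 6 h against 0 h with median scaling (-1.06) and no array weights (-0.998; -1.0044 with the third p53-/- array at 18 h also left out), and its WT call at 18 h against 0 h with no array weights (-1.20). It gained a call in p53-/- cells at 6 h against 0 h on the authors' processed values (-0.38) and with no array weights and that array left out (-1.26), and at 18 h against 0 h with no array weights (-1.53) and with no condition on B (-1.24).
Leaving out each array in turn moved the following results across 0 or across the threshold, with lowest and highest values as given. Without crossing either, Pim1 ran over -1.74 to -0.44 in p53-/- against WT cells at 18 h and -2.19 to -0.86 in p53-/- cells at 18 h against 0 h. Others moved by over 1.5 times with their call as it was. These were Pim2 probe 1 in p53-/- against WT cells at 6 h (0.33 to 0.53) and in the genotype differences at 6 h against 0 h (0.36 to 0.76) and 18 h against 6 h (-0.59 to -0.27), probe 2 in p53-/- against WT cells at 0 h (0.057 to 0.27), in WT cells at 18 h against 6 h (-0.31 to -0.038) and in p53-/- cells at 18 h against 0 h (-1.90 to -1.17), and probe 3 in WT cells at 18 h against 0 h (-2.27 to -1.48, called throughout). Pim3 ran over -0.31 to -0.16 in p53-/- against WT cells at 0 h and 0.024 to 0.30 at 18 h, 0.0085 to 0.39 in p53-/- cells at 18 h against 6 h, and 0.079 to 0.35 and 0.20 to 0.55 in the genotype differences at 6 h and 18 h against 0 h. For Pim1 the other ranges were -1.33 to -1.01 for p53-/- against WT at 0 h, -1.35 to -0.99 for p53-/- against WT at 6 h, -0.075 to 0.23 for WT 18 h against 6 h, -0.46 to 0.85 for p53-/- 18 h against 6 h, -0.16 to 0.22 for the genotype difference in 6 h against 0 h, -0.57 to 0.83 for the genotype difference in 18 h against 6 h and -0.53 to 0.81 for the genotype difference in 18 h against 0 h. For Pim2 probe 1 the ranges were -0.30 to 0.098 for p53-/- against WT at 0 h, -0.14 to 0.072 for p53-/- against WT at 18 h, -0.029 to 0.30 for WT 18 h against 6 h, -1.94 to -1.55 for p53-/- 18 h against 0 h and -0.030 to 0.36 for the genotype difference in 18 h against 0 h. For Pim2 probe 2 the ranges were -0.35 to 0.18 for p53-/- against WT at 6 h, -0.51 to 0.23 for p53-/- against WT at 18 h, -1.21 to -0.88 for WT 6 h against 0 h, -1.32 to -1.11 for WT 18 h against 0 h, -1.50 to -1.07 for p53-/- 6 h against 0 h, -0.73 to 0.28 for p53-/- 18 h against 6 h, -0.50 to 0.032 for the genotype difference in 6 h against 0 h, -0.49 to 0.51 for the genotype difference in 18 h against 6 h and -0.66 to 0.081 for the genotype difference in 18 h against 0 h. For Pim2 probe 3 the ranges were -0.027 to 0.44 for p53-/- against WT at 0 h, -0.017 to 0.26 for p53-/- against WT at 6 h, -0.61 to 0.19 for p53-/- against WT at 18 h, -0.23 to 0.57 for WT 18 h against 6 h, -2.41 to -1.94 for p53-/- 6 h against 0 h, -0.29 to 0.14 for p53-/- 18 h against 6 h, -2.51 to -1.98 for p53-/- 18 h against 0 h, -0.36 to 0.11 for the genotype difference in 6 h against 0 h, -0.69 to 0.11 for the genotype difference in 18 h against 6 h and -0.77 to 0.030 for the genotype difference in 18 h against 0 h. For Pim3 the ranges were -0.18 to 0.096 for p53-/- against WT at 6 h, -0.084 to 0.15 for WT 18 h against 6 h, -1.50 to -1.15 for p53-/- 18 h against 0 h and -0.064 to 0.32 for the genotype difference in 18 h against 6 h.
The likeness of Atf4 to Pim3 was 0.976 without the third p53-/- array at 18 h. Slide as a block was not run, since the headers used here give no slide. Levels near the detection limit (Pim2 probes 2 and 3 after withdrawal) are the least certain.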
